A study of Neurospora crassa with 84 samples.

Results

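A group of 10 genes of Neurospora crassa, out of 10590 in the count table, accumulated at least 4 times more mRNA in a mutant lacking ve-1 than in the wild type before fertilization, both in the dark and in the light, without a large response to light in the wild type. They were chosen from the measured values themselves. Levels were expressed as CPM (the counts of a gene scaled to a library total of 1000000), and 0.5 was added to each mean over days -2 to 0. A gene was taken if its mean in the ∆ve-1 mutant was at least 4 times that of the wild type in each light condition and at least 10 CPM in the dark. Its wild-type means in the light and in the dark had to lie within 2-fold of each other, and its wild-type mean after fertilization within 4-fold of that before. The genes were NCU07607 (sut-16) and NCU05853 (sut-12), annotated as sugar transporters; NCU02238 (mfs-18), annotated as a pantothenate transporter of the liz1 type; NCU10761, annotated as a methyltransferase; NCU07197 (arm-1), whose product is listed as arsenic-1; NCU02690, annotated as a mitochondrial integral membrane protein; and NCU01088, NCU04635, NCU08113 and NCU09421, which have no named product.

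VE-1 is the Neurospora member of the velvet proteins, fungal regulators that enter the nucleus, bind DNA through the velvet domain and form complexes with other velvet proteins and with the LAE-1 methyltransferase. In filamentous fungi these complexes set the balance between asexual spores and fruiting bodies and connect it to light. Sugar transporters and the relatives of liz1, the plasma membrane carrier of the vitamin pantothenate in fission yeast, belong to the major facilitator superfamily, a large family of membrane carriers that move small solutes into or out of the cell. Methyltransferases move a methyl group to proteins, nucleic acids or small molecules, and the annotation does not say which kind NCU10761 is.

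The 84 libraries came from surface tissue scraped from nitrogen-poor crossing agar, where protoperithecia, the unfertilized female organs, develop. The females were the wild type and the ∆ve-1 deletion strain, both of mating type mat A, grown in the dark or under constant light, and both were fertilized with wild-type conidia of the other mating type, so tissue from day 1 onward also held wild-type male nuclei. The course had 7 time points, counted from fertilization: -2, -1, 0, 1, 2, 4 and 6 days, where day 0 tissue was still unfertilized. With 2 strains and 2 light conditions this made 28 groups of 3 libraries. Tissue of replicates was pooled for RNA extraction, so the spread between libraries may be smaller than that between cultures, and p-values refer to these libraries. The libraries held 14.53 to 18.38 M counts each (M, 1e6; median 16.51 M), so that 3 counts in the median library are 0.182 CPM. The mRNA of ve-1 lay between 148 and 680 CPM in the wild-type libraries and between 6.68 and 16.6 CPM in the ∆ve-1 libraries.

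Before fertilization the ratio between strains was highest for NCU10761. These values chose the genes and are a description without a test. Of all genes, 261 reached the 4-fold ratio in the dark, 69 of these also in the light, 21 of these lay within the limits on the light response of the wild type, 14 had enough mRNA and 10 met the limit on the later wild-type level. The ratio of ∆ve-1 to wild type in the dark was 60 for NCU10761 and between 4.4, for NCU02690, and 6.66, for sut-16, for the other 9. In the light it was 41.8 for NCU10761, 11.3 for NCU08113, 6.95 for NCU09421 and between 4.23 and 5.43 for the rest.

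The limits cut through a continuous range. The genes just inside the fold limit were NCU02690, with ratios of 4.4 in the dark and 4.23 in the light, and NCU01088, with 6.29 and 4.37. Just outside were NCU10129, with 3.94 and 4.22, and NCU16419, with 3.83 and 4.08. Another 4 genes missed only the limit on the later wild-type level. Among these was the sugar transporter gene sut-6 (NCU08152), with ratios of 6.45 in the dark and 21.9 in the light, whose wild-type mean after fertilization was 109 times that before. With a ratio of 3 in place of 4, 41 genes would have been taken, and with 6 only NCU10761.

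Most of the 10 genes varied widely between the dark-grown ∆ve-1 libraries taken before fertilization, and 1 library stood apart. NCU08113 ranged from 1.67 to 53.2 CPM over the 9 libraries of days -2 to 0, with a median of 8.63 CPM. NCU01088 ranged from 62.7 to 655 CPM, with a median of 357 CPM. By the ratio of highest to lowest library, sut-12 varied least, from 138 to 352 CPM. It was the only one of the 10 to vary more in dark-grown wild type of these days, from 9.5 to 114 CPM. The lowest library for 6 of the 10 genes (NCU01088, NCU04635, arm-1, NCU09421, NCU08113 and NCU02690) was replicate 3 of day -2, and the highest for 6 of them was replicate 1 of day -1. In replicate 3 of day -2, mRNA of eas, which encodes the hydrophobin that coats conidia, was at 70993 CPM, while con-8, a gene of conidiation, was at 335 CPM. In the other 8 libraries eas lay between 5304 and 25051 CPM and con-8 between 1554 and 11836 CPM. Without that library, 13 genes would have been taken, including all 10. Leaving out every replicate 3 would have taken 5 genes, 4 of them among the 10, because sut-12, mfs-18, arm-1, NCU01088, NCU04635 and NCU02690 then missed a limit. Leaving out every replicate 1 would have taken 17 genes, without NCU04635.

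**Figure D1:**
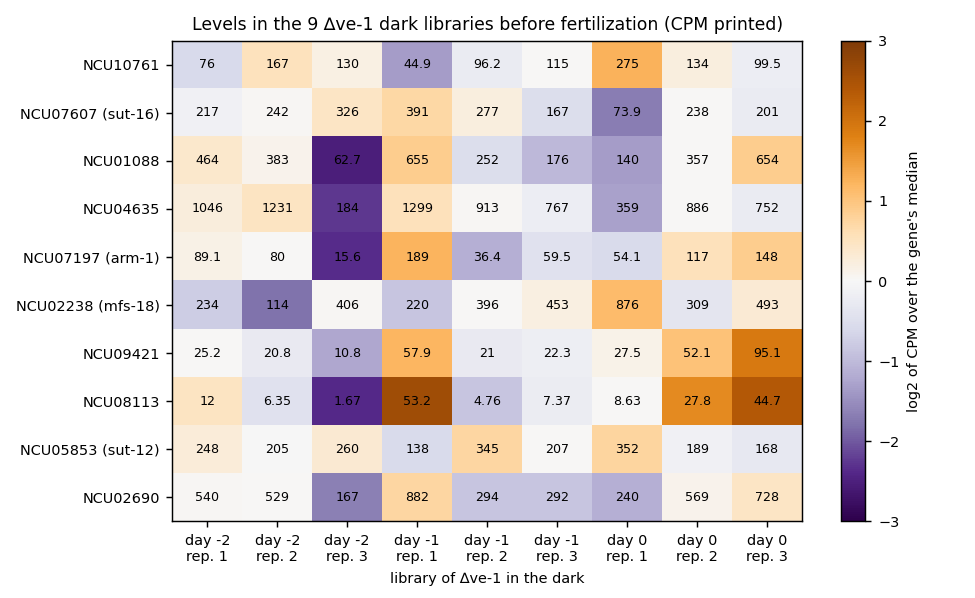
Level of each gene, printed in CPM, in the 9 ∆ve-1 libraries kept in the dark on days -2 to 0 (columns), coloured by its log2 ratio to the gene's median over those libraries. Replicate 3 of day -2 is low for 6 genes, such as NCU08113 at 1.67 CPM, but not for sut-16, sut-12, mfs-18 or NCU10761.

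The genes did not vary alike among these 9 libraries. On log2 values, NCU01088 and NCU02690 had a Pearson correlation of 0.97, arm-1 and NCU02690 of 0.95, and NCU09421 and NCU08113 of 0.96. sut-12 went the other way, with -0.77 against NCU02690, and NCU10761 had -0.73 against sut-16. sut-16 also had -0.63 against mfs-18 and -0.49 against sut-12, and its highest value was 0.32, against NCU02690. It was close to unrelated to some, with 0.05 against arm-1 and -0.01 against NCU09421. These correlations describe 9 libraries of 3 days that share their totals, and they come from values that also chose the genes.

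After fertilization most of the genes still accumulated more mRNA in the ∆ve-1 mutant. No ∆ve-1 library of these days was used to choose them, and the wild-type libraries entered only as a single mean over both light conditions. Contrasts gave equal weight to days 1, 2, 4 and 6, and a call needed an adjusted p below 0.05 together with a log2 change of more than 1 in size. In the dark, 9 of the 10 genes were called higher in ∆ve-1 and 0 lower, where 9.70% of the 9701 genes tested were called higher and 6.72% lower. In the light, 8 were called higher and 0 lower, where 12.5% of all genes were called higher and 20.5% lower. The median log2 change of the 10 was 2.13 in the dark and 1.93 in the light, where the medians over all genes tested were -0.0359 and -0.0496. Every ∆ve-1 library lay above every wild-type library for 7 of the 10 genes in the dark, where this held for 7.04% of all genes, and for 8 in the light, where it held for 10.96%.

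**Figure D2:**
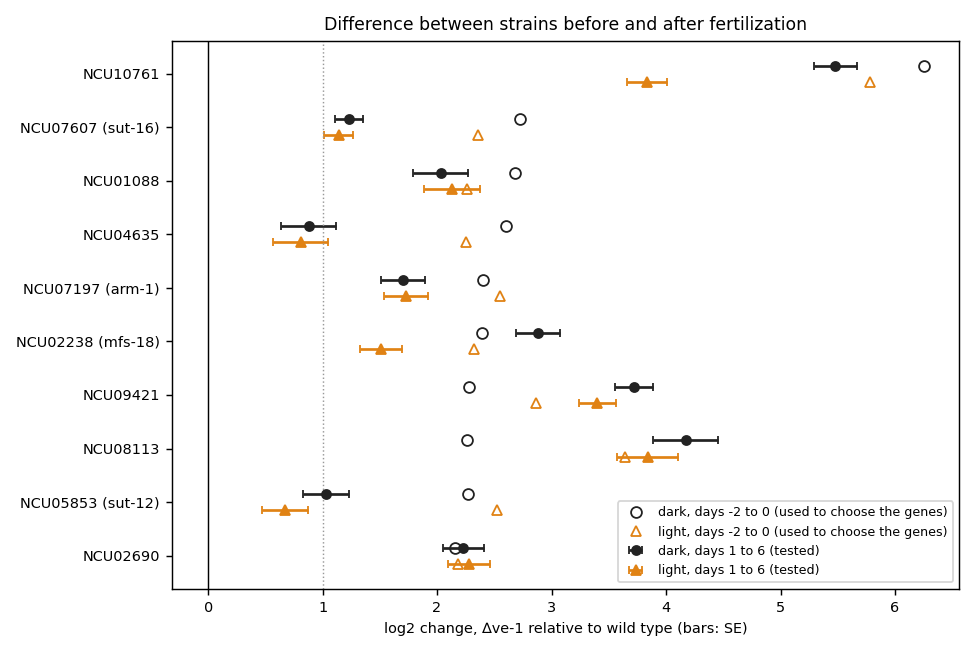
Log2 change of ∆ve-1 relative to wild type for each gene in the dark (circles) and in the light (triangles). Filled symbols with SE bars are the tested contrasts over days 1 to 6, open symbols are the values of days -2 to 0 that chose the genes, and the dotted line marks the log2 change of 1 needed for a call, which NCU04635 did not reach in either condition (0.88 and 0.81).

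The tissue itself also differed between strains on these days. The summed level of 7 marker genes of conidia and conidiophores (fl, con-6, con-8, con-10, con-13, eas and csp-2) on days 1 to 6 was 1708 to 6023 CPM in wild-type libraries kept in the dark, with a median of 2377 CPM, and 11459 to 22255 CPM in those of ∆ve-1, with a median of 17834 CPM. In the light it was 7035 to 23998 CPM in wild-type libraries (median 12214 CPM), against 58442 to 86658 CPM in those of ∆ve-1 (median 75782 CPM). Of the 7, 5 were called higher in ∆ve-1 in the dark and 1 was called lower, and in the light 5 and 0. None of the 7 was at 0 in any group. The summed level of 6 marker genes of female sexual tissue (asd-1, fsd-1, fmf-1, poi-2, app and per-1) was 1917 to 36865 CPM in wild-type libraries and 1542 to 31017 CPM in those of ∆ve-1 in the dark (medians 19140 and 9749 CPM), and 6129 to 56198 against 810 to 3031 CPM in the light (medians 22035 and 1608 CPM). Of the 6, 2 were called higher and 2 lower in the dark, and 2 higher and 4 lower in the light. Those higher in both were asd-1, with log2 changes of 1.05 and 1.33 (adjusted p = 1.12e-05 and 3.5e-08), and fmf-1, with 3.16 and 1.59 (adjusted p = 8.18e-10 and 0.000123). Conidial markers also differed before fertilization, in the libraries that chose the genes. In the dark their sums were 1328 to 25966 CPM in the wild type, with a median of 1892 CPM, and 9562 to 72993 CPM in ∆ve-1, with a median of 22360 CPM. Under light the sums were 36808 to 76568 CPM (median 61347 CPM) and 50866 to 98514 CPM (median 65535 CPM), and single markers went in different directions. There eas, which made up most of the wild-type sum, had a wild-type median of 45398 CPM, against 20725 CPM for ∆ve-1. con-8 lay at 2642 to 7720 CPM and 11045 to 19242 CPM, and con-10 at 366 to 4069 CPM and 4212 to 27063 CPM, both without overlap. Median con-6 levels were 6087 and 13626 CPM. Female markers of days -2 to 0 differed too. Their sums had medians of 1351 CPM (wild type) and 662 CPM (∆ve-1) in darkness, but 4956 and 1136 CPM with light. In each condition the ranges of these sums overlapped. Dark-grown app did not overlap, at 16.2 to 838 against 0.23 to 5.95 CPM. Medians of app and poi-2 were lower in ∆ve-1 under both conditions, and those of asd-1, fsd-1 and fmf-1 were higher. That of per-1 was higher in darkness and lower with light. The part of the tissue in the differences of the 10 genes was not tested, and in bulk RNA fewer cells of a type and less RNA per cell cannot be told apart.

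sut-16 (NCU07607, chromosome IV, 239980 to 242931, assembly NC12) was called higher in ∆ve-1 on days 1 and 2 after fertilization but not on days 4 and 6. In the dark on days 1 to 6, the wild-type libraries ranged from 19.7 to 157 CPM with a median of 63.4 CPM. The ∆ve-1 libraries ranged from 111 to 175 CPM with a median of 150 CPM, so the groups overlapped. The log2 change was 1.23 (SE 0.125, adjusted p = 5.77e-13). Kept in the light, the wild-type libraries ranged from 42.5 to 162 CPM (median 98.5 CPM) and those of ∆ve-1 from 169 to 203 CPM (median 188 CPM), with no overlap and a log2 change of 1.14 (SE 0.125, adjusted p = 1.87e-12). By the last day the means of the strains were close. In the dark the wild type had 27.5 ± 9.48 CPM on day 1 and 139 ± 16.1 CPM on day 6 (SD, n = 3), when ∆ve-1 was at 131 ± 20.2 CPM (SD, n = 3).

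The other sugar transporter gene, sut-12 (NCU05853, chromosome VII, 4056218 to 4058155), showed the smallest difference in the light. On days 1 to 6 in the dark it ranged from 63.4 to 209 CPM in the wild type (median 107 CPM) and from 135 to 323 CPM in ∆ve-1 (median 245 CPM). The log2 change was 1.03 (SE 0.199, adjusted p = 8.57e-06), which was 0.99 with DESeq2 scaling and with the DESeq2 test, so that the call rests on the scaling. Light-grown libraries ranged from 99.5 to 172 CPM in the wild type (median 131 CPM) and from 121 to 259 CPM in ∆ve-1 (median 194 CPM), and the log2 change of 0.67 (SE 0.198, adjusted p = 0.0019) was below the size needed for a call. The wild-type means on either side of fertilization were far apart. In the light they were 18.6 ± 9.42 CPM on day 0 and 141 ± 11.1 CPM on day 1 (SD, n = 3), when ∆ve-1 had 150 ± 39.9 and 170 ± 15.1 CPM (SD, n = 3).

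mfs-18 (NCU02238, chromosome VII, 3225973 to 3228533) was called higher in ∆ve-1 on every day after fertilization. In the dark on days 1 to 6 the wild-type libraries ranged from 54 to 115 CPM (median 79 CPM) and the ∆ve-1 libraries from 455 to 762 CPM (median 599 CPM). Light-grown libraries had 67.5 to 205 CPM (median 149 CPM) and 220 to 507 CPM (median 352 CPM). The groups did not overlap in either condition, and the log2 change was 2.88 in the dark (SE 0.193, adjusted p = 1.14e-19). The value for the light was 1.51 (SE 0.184, adjusted p = 5.99e-11). The annotated span of mfs-18 shares 2169 bases with that of NCU02237 (3226365 to 3230952), and the annotation used here gives no strand. Reads were counted by strand, so counts of the shared stretch are uncertain if both genes lie on the same one. NCU02237 was at 23.7 to 32.8 CPM in wild-type and 39 to 106 CPM in ∆ve-1 libraries of the dark on the same days, and its log2 change was 1.22 (SE 0.134, adjusted p = 8.04e-12).

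The methyltransferase gene NCU10761 (chromosome IV, 3574180 to 3575417) was low in the wild type throughout and showed the largest change of the 10 in the dark. On days 1 to 6 in the dark the wild-type libraries ranged from 2.79 to 8.66 CPM (median 5.74 CPM) and the ∆ve-1 libraries from 164 to 395 CPM (median 241 CPM). With light, the ranges were 2.17 to 6.75 CPM (median 4.74 CPM) and 41.8 to 93.9 CPM (median 66.7 CPM). No library of one strain reached the range of the other. The log2 change reached 5.48 in the dark (SE 0.184, adjusted p = 6.41e-34). Under light it was 3.83 (SE 0.174, adjusted p = 1.17e-28). Before fertilization, ∆ve-1 had a median of 115 CPM in the dark and 108 CPM in the light, against 1.49 and 2 CPM in the wild type.

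arm-1 (NCU07197, chromosome V, 6269270 to 6271485) was called higher in both light conditions, and its interaction of strain and light was 0.02 on the log2 scale (SE 0.265, adjusted p = 0.966). In the dark on days 1 to 6 it ranged from 16.2 to 34.1 CPM in the wild type (median 26.1 CPM) and from 44.1 to 133 CPM in ∆ve-1 (median 82.3 CPM). Under light it ranged from 22.9 to 50.3 CPM (median 38.6 CPM) and from 81.5 to 151 CPM (median 120 CPM). The groups did not overlap. The log2 change was 1.70 in the dark (SE 0.192, adjusted p = 1.53e-11). It was 1.73 in the light (SE 0.191, adjusted p = 2.97e-12).

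NCU02690 (chromosome I, 3215935 to 3218947), the gene for the mitochondrial membrane protein, was called on every day after fertilization. In the dark on days 1 to 6 its wild-type libraries ranged from 56.6 to 241 CPM (median 111 CPM) and its ∆ve-1 libraries from 396 to 646 CPM (median 577 CPM). The ranges under light were 110 to 395 CPM (median 271 CPM) and 889 to 1538 CPM (median 1140 CPM). The strains were separate in both conditions, with log2 changes of 2.23 (SE 0.181, adjusted p = 1.66e-16) and 2.28 (SE 0.181, adjusted p = 1.33e-17).

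NCU09421 (chromosome VII, 1176211 to 1177377) and NCU08113 (chromosome I, 313930 to 315269), both without a named product, had the largest changes after NCU10761 in the dark. In the dark on days 1 to 6, NCU09421 ranged from 3.98 to 14.1 CPM in the wild type (median 8.39 CPM) and from 56.4 to 170 CPM in ∆ve-1 (median 108 CPM). NCU08113 ranged from 1.23 to 4.12 CPM (median 2.56 CPM) and from 25.3 to 82 CPM (median 47.9 CPM). The strains did not overlap for either gene. In the light, NCU09421 ranged from 8.33 to 38.3 CPM in the wild type (median 20.8 CPM) and from 141 to 302 CPM in ∆ve-1 (median 176 CPM). NCU08113 ranged from 1.84 to 19 CPM (median 8.16 CPM) and from 64.5 to 191 CPM (median 109 CPM). Again no ranges met. For NCU09421 the log2 change was 3.72 in the dark (SE 0.166, adjusted p = 1.84e-27). Under light it was 3.40 (SE 0.161, adjusted p = 1.2e-27). Those of NCU08113 were 4.17 (SE 0.282, adjusted p = 1.46e-19) and 3.84 (SE 0.266, adjusted p = 4.6e-20), and before fertilization they had been 2.26 and 3.64.

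This pair was also the most alike in ∆ve-1. Over the 21 libraries of ∆ve-1 in the dark, the Pearson correlation of their log2 levels was 0.95, and over the 21 in the light it was 0.96, the highest of the 45 pairs of genes in each case. In the wild type it was 0.91 in the light and -0.05 in the dark. These values describe libraries that share their days and include those that chose the genes. In light-grown ∆ve-1, mean NCU09421 mRNA was 39.8 ± 5.75 CPM at day -2 and 249 ± 58.9 CPM at day 6, and that of NCU08113 was 22.6 ± 5.34 and 152 ± 37.2 CPM (SD, n = 3).

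NCU01088 (chromosome V, 2873750 to 2875996) had its highest mean on day 6 in both strains and both light conditions. In the dark on days 1 to 6 it ranged from 52.4 to 202 CPM in the wild type (median 89.5 CPM) and from 295 to 605 CPM in ∆ve-1 (median 395 CPM). Under light it ranged from 69.8 to 246 CPM (median 138 CPM) and from 286 to 1040 CPM (median 511 CPM). The strains did not overlap, and the log2 changes were 2.03 (SE 0.243, adjusted p = 1.03e-10) and 2.13 (SE 0.243, adjusted p = 9.13e-12).

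NCU04635 (chromosome V, 1381492 to 1382813) was the only one of the 10 not called in either condition. Its ranges on days 1 to 6 overlapped, at 68.7 to 933 CPM in the wild type (median 138 CPM) and 247 to 542 CPM in ∆ve-1 (median 357 CPM) in the dark. With light they were 111 to 1149 CPM (median 338 CPM) and 303 to 823 CPM (median 557 CPM). The log2 changes were 0.88 (SE 0.241, adjusted p = 0.00115) and 0.81 (SE 0.241, adjusted p = 0.00185), and without replicate 2 the value in the light was 1.03 and would have been called. In the wild type in the dark its mean was 119 ± 16.8 CPM on day 1 and 715 ± 210 CPM on day 6, while light-grown ∆ve-1 had 2195 ± 331 CPM on day -2 and 680 ± 137 CPM on day 6 (SD, n = 3).

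**Figure D3:**
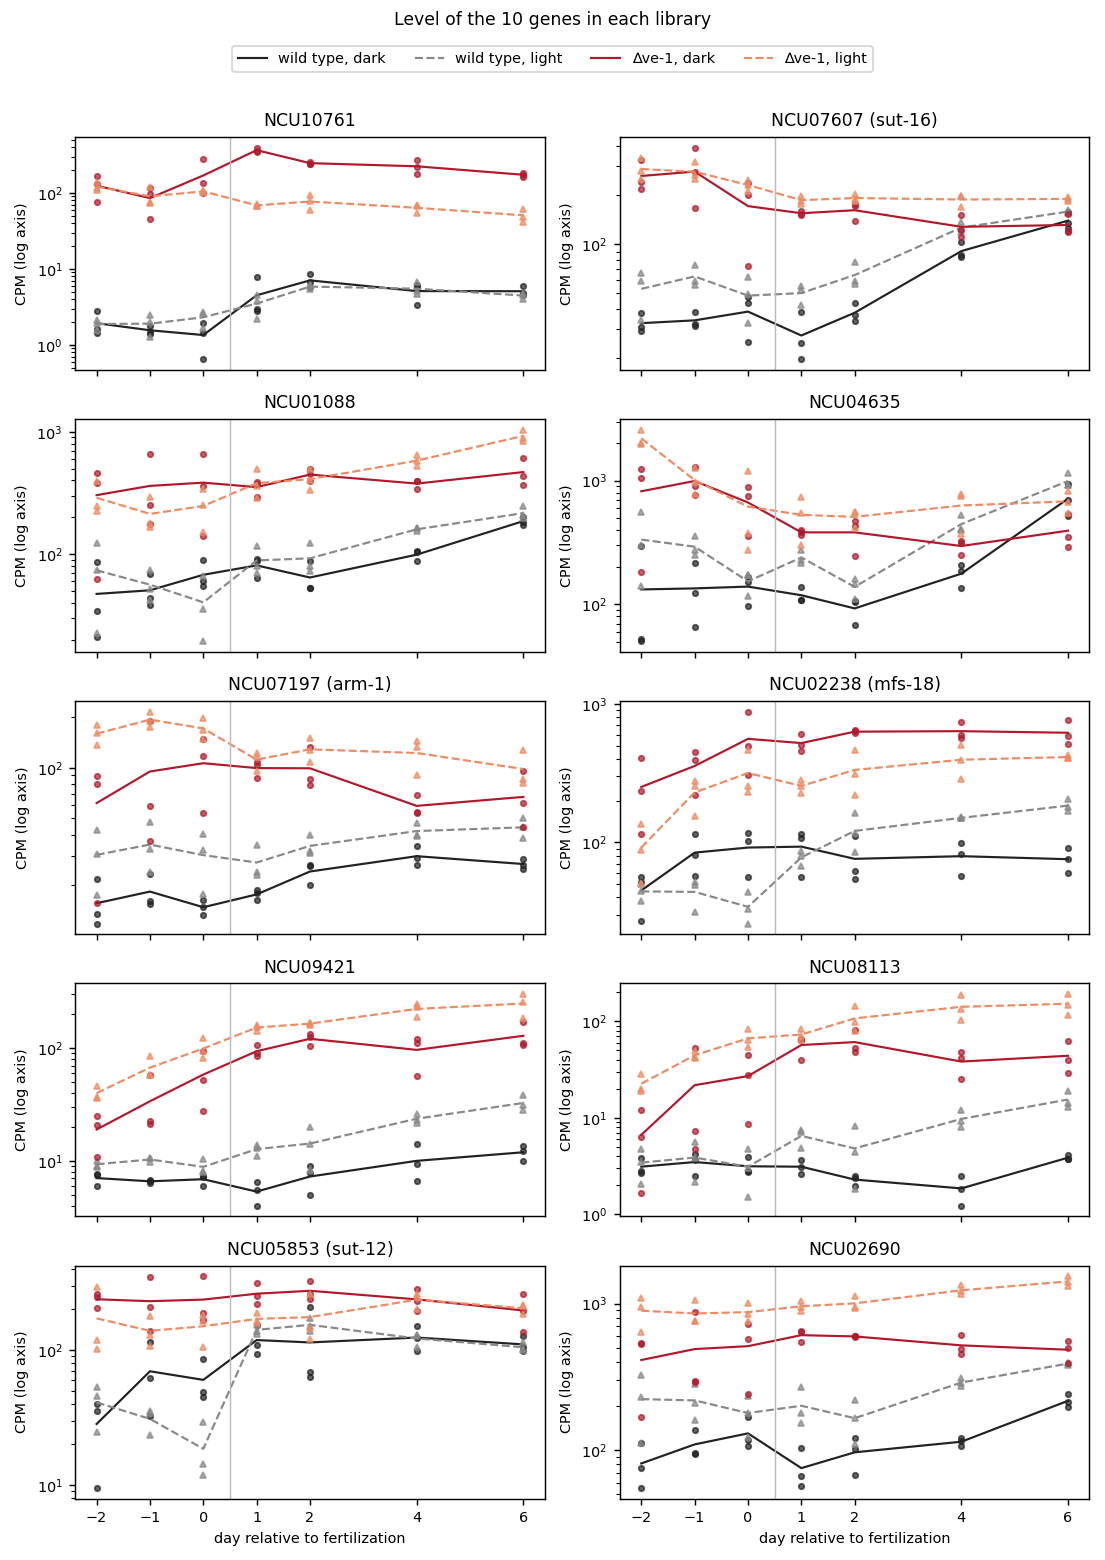
Level of each of the 10 genes in CPM (log axis) by day relative to fertilization, with 1 point per library and lines through the means of 3 libraries for wild type and ∆ve-1 in the dark and in the light; the vertical line separates the days before and after fertilization. NCU10761 stays below 10 CPM in the wild type, with a highest library of 8.66 CPM, and the points of the strains lie close together on day 6 for sut-16 and NCU04635.

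Day by day, the differences were most frequent just after fertilization. In the dark, 10 of the 10 genes were called higher in ∆ve-1 on day 1 (11.8% of all genes), 10 on day 2 (11.7%), 6 on day 4 (9.55%) and 7 on day 6 (6.99%). In the light, 9 were called higher on day 1 (14.3% of all genes), 9 on day 2 (14.8%), 7 on day 4 (12.4%) and 8 on day 6 (13.6%). None was called lower on any of these days, where on days 1, 2, 4 and 6 the share of all genes called lower was 6.62%, 10.2%, 5.92% and 10.9% in the dark and 17.9%, 19.4%, 20.6% and 23.2% in the light. NCU10761, NCU01088, mfs-18, NCU09421, NCU08113 and NCU02690 were called on each of the 4 days in both conditions, arm-1 on all but day 4 in the dark. By day 6 the log2 change of NCU04635 was -0.82 in the dark (SE 0.481, adjusted p = 0.172). Under light it was -0.38 (SE 0.478, adjusted p = 0.495). That of sut-16 was then -0.05 in the dark (SE 0.246, adjusted p = 0.891). Under light it was 0.43 (SE 0.246, adjusted p = 0.12).

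**Figure D4:**
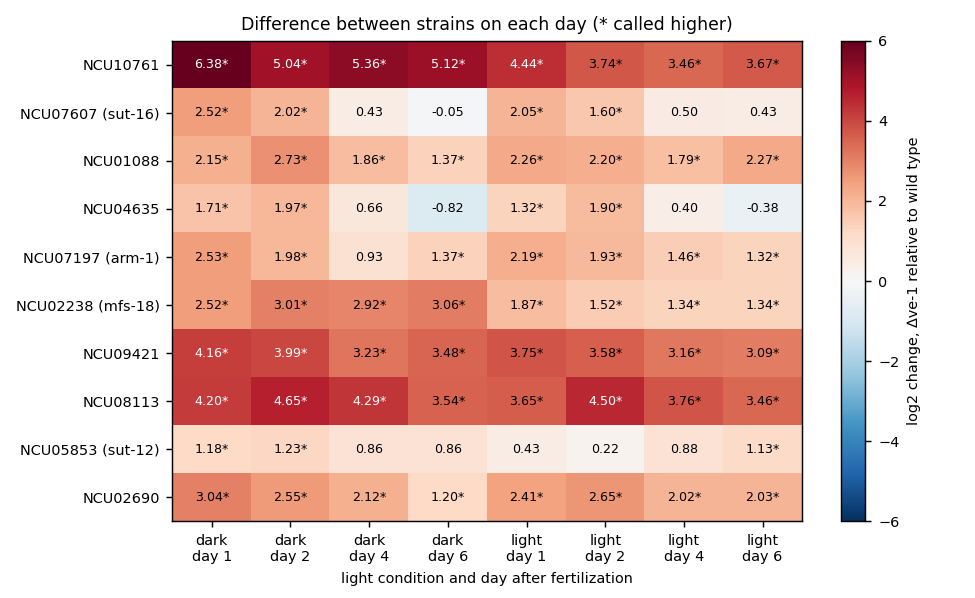
Log2 change of ∆ve-1 relative to wild type on each day after fertilization in the dark and in the light, printed in each cell and shown by colour, with an asterisk where the gene was called higher. In the dark sut-16 is at 2.52 on day 1 and at -0.05 on day 6, and over both conditions NCU10761 lies between 3.46 and 6.38.

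Whether the difference between strains shrank was tested in a contrast of day 6 with day 1, added after the daily values had been seen. The test goes by sign, so for a gene lower in ∆ve-1 on day 1 a further fall is a larger difference. In the dark the log2 difference of ∆ve-1 from wild type fell for 4 of the 10 genes and rose for 0. Over all genes, 10.02% were called as falling and 3.61% as rising. In the light the log2 difference fell for 2 and rose for 0, where the shares over all genes were 13.6% and 7.54%. The count in the light is thus close to the share over all genes and shows no shrinking of the 10 as a group. For sut-16 the difference between strains changed by -2.57 on the log2 scale in the dark (SE 0.355, adjusted p = 1.12e-07) and by -1.62 in the light (SE 0.35, adjusted p = 0.000173). For NCU04635 it changed by -2.54 in the dark (SE 0.687, adjusted p = 0.00456) and by -1.70 in the light (SE 0.681, adjusted p = 0.0433). The other calls, both in the dark, were NCU02690, at -1.84 (SE 0.492, adjusted p = 0.00405), and NCU10761, at -1.26 (SE 0.456, adjusted p = 0.0366). Without replicate 3 only sut-16 was called in the dark, and leaving out any of the 3 replicates removed the call of NCU04635 in the light. That of NCU10761 was also lost without replicate 2.

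Several of the genes differed between light and dark after fertilization. Beforehand the rule had held the wild type within 2-fold, and some genes lay near that limit. The earlier wild-type ratio of light to dark was 1.93 for NCU02690 and arm-1 and 1.92 for NCU04635. It was 0.556 for mfs-18 and 0.576 for sut-12, but 1.36 for NCU09421 and 1.06 for NCU08113. In the wild type on days 1 to 6, 3 of the 10 genes were called higher in the light than in the dark and 0 lower, where 7.17% of all genes were called higher and 0.670% lower. These were NCU08113, whose log2 change was 1.66 (SE 0.276, adjusted p = 2.37e-06), NCU09421, with 1.27 (SE 0.157, adjusted p = 2.18e-09), and NCU02690, with 1.13 (SE 0.175, adjusted p = 5.7e-07). In ∆ve-1, 2 were called higher in the light and 1 lower, where 4.84% and 14.7% of all genes were. Those higher were NCU08113, with 1.33 (SE 0.237, adjusted p = 1.88e-06), and NCU02690, with 1.18 (SE 0.175, adjusted p = 3.18e-08). NCU10761 was lower in the light, by a log2 change of -1.79 (SE 0.153, adjusted p = 7.14e-16). Conidial markers moved with light too, as 4 of the 7 were called higher in light-grown than in dark-grown wild type, and 6 of the 7 in ∆ve-1, and their part in these changes was not tested.

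The effect of losing ve-1 depended on light for NCU10761 and mfs-18. In the test of the interaction, 2 of the 10 genes had a negative call and 0 a positive one, where 15.4% and 1.75% of all genes did. Both of the 2 were raised by the deletion, so a negative value means less raised in the light than in the dark. The shares over all genes go by sign alone and also count genes lowered more in the light. The log2 difference of differences was -1.65 for NCU10761 (SE 0.228, adjusted p = 1.45e-08) and -1.36 for mfs-18 (SE 0.256, adjusted p = 1.15e-05). For NCU10761 the wild type differed little between light and dark (log2 change -0.14, SE 0.171, adjusted p = 0.532), while dark-grown ∆ve-1 had 169 ± 92.7 CPM on day 0 and 365 ± 27.1 CPM on day 1, and light-grown ∆ve-1 had 105 ± 3.21 and 68.5 ± 2.87 CPM (SD, n = 3). For mfs-18 the change from dark to light had opposite signs, at 0.69 in the wild type (SE 0.181, adjusted p = 0.00183) and -0.67 in ∆ve-1 (SE 0.18, adjusted p = 0.000921), neither of them large enough for a call. For the overlapping gene NCU02237 the interaction was -0.39 (SE 0.187, adjusted p = 0.0787).

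**Figure D5:**
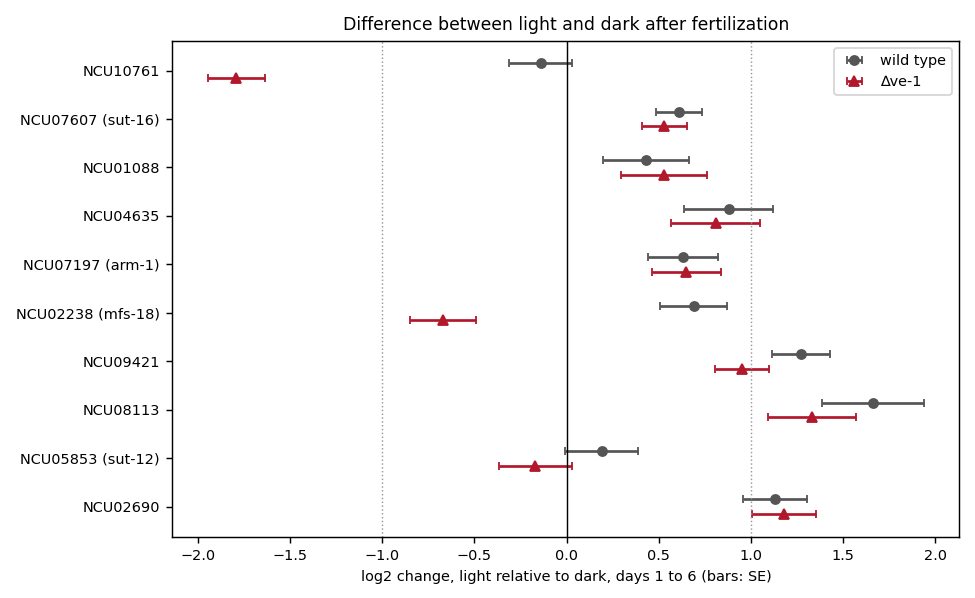
Log2 change in the light relative to the dark over days 1 to 6 for each gene in the wild type (circles) and in ∆ve-1 (triangles), with SE bars and dotted lines at the size needed for a call. The strains lie apart for NCU10761 (-0.14 and -1.79) and mfs-18 (0.69 and -0.67).

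Per kilobase of annotated gene length, introns included, the genes kept much the same order in both strains in the dark before fertilization. NCU10761 was the exception. In dark-grown ∆ve-1 on days -2 to 0, NCU04635 had the highest mean level, at 625 CPM per kb, followed by NCU02690 at 156, NCU01088 at 155 and mfs-18 at 152 CPM per kb, which lay within the spread between libraries. Next came sut-12 at 121, NCU10761 at 102 and sut-16 at 80.3 CPM per kb. arm-1 was at 39.5, NCU09421 at 31.7 and NCU08113 at 13.8 CPM per kb. In dark-grown wild type NCU04635 was again first, at 102 CPM per kb. It was followed by NCU02690 at 35.4, mfs-18 at 28.8, sut-12 at 27.2 and NCU01088 at 24.5 CPM per kb. Lower still were sut-16 at 11.9, arm-1 at 7.32 and NCU09421 at 5.83 CPM per kb. NCU10761 was last, at 1.3 CPM per kb, below NCU08113 at 2.43 CPM per kb. Its shift restates the ratio between strains that helped to choose it.

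The 10 genes were spread over the genome, with 2 on chromosome I, 2 on IV, 3 on V and 3 on VII, and none lay within 3 genes of another. Their median annotated length was 2077 bases, beside 2127 for the 9757 protein-coding genes. Of the 60 protein-coding genes within 3 positions of them, 58 were tested. On days 1 to 6 in the dark 9 were called higher in ∆ve-1 and 5 lower, beside 9.70% and 6.72% of all genes. In the light 11 were called higher and 11 lower, beside 12.5% and 20.5% of all genes. Called higher in both conditions were NCU07609 and NCU07610 near sut-16, NCU07199 near arm-1 and NCU05851 near sut-12. Called lower in both were NCU07200 near arm-1, and NCU05852 and NCU05855 near sut-12. The neighbourhood of NCU09421 also held a run of raised genes, singled out here after its values were seen. The following 3 genes, NCU09419, NCU09420 and NCU17185, had log2 changes of 1, 6.16 and 2.45 in the dark (adjusted p = 9.43e-14, 3.9e-19 and 1.15e-13) and 1.44, 4.09 and 1.57 in the light (adjusted p = 1.49e-20, 5.51e-15 and 7.48e-09). On the other side of NCU09421, NCU09423 was called lower, at -1.18 in the dark and -5.96 in the light (adjusted p = 0.000186 and 1.08e-24). There NCU09422 and NCU09424 were called lower in the light only, at -1.04 and -1.86 (adjusted p = 1.88e-12 and 1.64e-11). The spans of NCU09419 (1177940 to 1181465) and NCU09420 (1178377 to 1179361) overlap, so their counts carry the same uncertainty as those of mfs-18.

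Other sugar transporter genes changed in both directions. Of the 21 genes with a sut name, 7 were called higher and 2 lower on days 1 to 6 in the dark, beside 9.70% and 6.72% of all genes. In the light 5 were called higher and 3 lower, beside 12.5% and 20.5% of all genes. The median log2 changes of the 21 were 0.36 and 0.57. These counts include sut-16, called higher in both conditions, and sut-12, called higher in the dark. In the dark, sut-11 (NCU06384) was raised by 4.47 on the log2 scale (SE 0.247, adjusted p = 3.24e-23) and sut-20 (NCU09358) by 2.05 (SE 0.161, adjusted p = 5.4e-17), while sut-19 (NCU07054) had -2.30 (SE 0.381, adjusted p = 4.94e-07) and sut-9 (NCU04963) -1.76 (SE 0.235, adjusted p = 2.24e-09). Of 163 genes named as transporters or permeases, which include the 21 and 3 of the 10, 33 were called higher and 16 lower in the dark. In the light 40 and 29 were, with median log2 changes of 0.09 in the dark and 0.28 in the light. These names came from tables of the study that mostly cover genes it had singled out on these samples, so the counts are not independent evidence of a direction.

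None of the 10 genes belonged to the lists of known developmental genes, which are short beside the 10590 genes counted. The limits on the wild type also kept some listed genes out beforehand. Before fertilization con-6 lay at 12.5 to 371 CPM in dark-grown and 1069 to 10129 CPM in light-grown wild type. Wild-type per-1 in the dark lay at 9.16 to 121 CPM before fertilization and 778 to 5685 CPM after it. The empty overlap is therefore not a result about the 10 genes. The counts of calls below stand beside shares over all genes of 9.70% higher and 6.72% lower in the dark. In the light these shares were 12.5% and 20.5%. Of 14 tested genes of asexual sporulation, 7 had a call of higher and 1 of lower on days 1 to 6 in the dark, and 8 and 0 had them in the light. Of 10 light-regulated marker genes, 4 were called higher in the dark and 7 in the light, with 0 lower in both. Of 7 genes of pheromone signaling and mating type, 5 were called higher and 0 lower in the dark, and 4 and 1 in the light. Of 9 genes of perithecia and female development, 2 were called higher and 2 lower in the dark, and 2 and 5 in the light.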

How the data were processed

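Strand-specific poly-A libraries were sequenced in pairs. The authors used fastp for cleaning, STAR (version 2.7 in the submitters' processing notes) for mapping to assembly NC12 of strain OR74A, and deposited raw counts per gene from featureCounts, which used strand. Neither a filter nor a normalization had been applied. All per-sample columns were used, and samples were grouped by the strain, light and day in their labels.

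Levels are plain CPM. Tests were run in R 4.3.3 with limma 3.58.1 and edgeR 4.0.16, whose quasi-likelihood F test was applied to the counts after TMM scaling and edgeR's filter on low counts, with all 28 groups in 1 fit of 9701 genes and adjustment after Benjamini and Hochberg over all of them. All 10 genes were among those tested. The SE is the absolute log2 change divided by the square root of F. The study itself used maSigPro over time and DESeq2 for pairs of conditions. Replicates were distinct libraries (lowest chi-square per degree of freedom 11.95 over 84 pairs). The tests were tried on simulated data first.

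The 10 genes and the lists were chosen with earlier results of these data known. Named genes were those with a symbol, the highest ratios or levels before fertilization, the largest and smallest changes in the main contrasts, and the nearest genes at the fold limits; with 10 genes this names all. Other named sut genes had the 2 highest and 2 lowest changes in the dark and were picked after their values were seen. Gene names came from RefSeq (NC12) and the study's supplementary tables. con-1, asm-1, ve-2 and vos-1 were not matched, and product classes other than transporters were not run. No sequence was analysed here, so near-identical copies were not checked. Alternatives were DESeq2 (1.42.0) with its scaling, no filter, a replicate block, leaving out each replicate, no fold criterion, and other settings of the choice of genes.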

Additional observations from a re-analysis of the deposited data

Results flagged for a closer look

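The difference between strains after fertilization itself differed between light and dark for NCU10761 and for mfs-18 (NCU02238), by the interaction test of edgeR. NCU10761 was raised in ∆ve-1 by 5.48 on the log2 scale in the dark and by 3.83 in the light, a difference of -1.65 (adjusted p = 1.45e-08). NCU02238 was raised by 2.88 in the dark and by 1.51 in the light, a difference of -1.36 (adjusted p = 1.15e-05). Both calls were kept when each replicate was left out in turn and under the other settings. Of all genes tested, 15.4% had a negative call in this test, a share that also counts genes lowered more by the deletion in the light. The summed conidial markers and the summed female markers also differed between strain and light groups on these days, and their part in these differences was not tested.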

How the results depend on the processing

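The choice of genes was the least stable step. TMM-scaled CPM and an offset of 0 gave 10 and 11 genes, including all 10, a ratio of 3 gave 41, a ratio of 6 gave 1, and leaving out replicates gave from 5 to 17. Without the fold criterion, 7 genes were higher and 2 lower in the light in ∆ve-1, and 7 higher in the wild type. Over all genes, calls then numbered 6436 in place of 1593 for the strains in the dark, 7851 in place of 3202 in the light, 6727 in place of 1898 for light in ∆ve-1, 3645 in place of 761 for light in the wild type and 4727 in place of 1667 for the interaction. For the change between day 1 and day 6 they numbered 2285 in place of 1322 in the dark, where leaving out replicate 3 gave 695, and 3532 in place of 2048 in the light. Leaving out replicates gave from 1 to 4 genes with a smaller difference between strains on day 6 in the dark and 1 in the light, and this contrast was chosen after seeing the data. No direction of a called gene reversed. The call of sut-12 in the dark was lost with DESeq2 scaling (0.99) and with the DESeq2 test (0.99). In the light, without replicate 2, NCU04635 was called between strains (1.03) and NCU09421 between light and dark in ∆ve-1 (1.07). The cause of these shifts was not tested. Neither the labels nor the methods say that a replicate number marks a shared culture or day, and not every same-number pair correlated above 0.1 in its deviations (24 of 42 did, range -0.316 to 0.304), so the numbers were not used as pairs; as a hint from the data only, 26 of 42 correlated best with their own number. With the replicate block, 9 of the 10 genes were called higher in the dark and 8 in the light, and every count of calls among the 10 was the same as without it. Over all genes the calls with the block numbered 1589 for the strains in the dark and 3207 in the light.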
